A study of Homo sapiens with 7 samples.

Results

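The comparison described here sets HepG2 cells treated for 36 h with siRNA against TEAD1 beside untreated HepG2 cells. HepG2 is an established human hepatocellular carcinoma line. The groups are 2 libraries at 36 h, labelled as TEAD1 knockdown, of which 1 received siRNA 1 and the other siRNA 2, and 1 library of untreated cells at 0 h, labelled as wild type. All were grown in DMEM with fetal bovine serum, and small RNA was sequenced from total RNA. The series also has libraries of both siRNAs at 24 and 48 h, which enter here to estimate the spread between libraries and as neighbours in time. The miRNAs described are those human entries that average 10 reads or more over the 3 libraries, 484 of the 2652 in the files. All 484 had reads in the siRNA 1 library at 36 h and in untreated cells, and 481 had reads in the siRNA 2 library at 36 h. Of the 2168 left out, 883 had a read in at least 1 of the 3 libraries. At the edge of the rule, miR-3157-3p averaged 10 reads and was kept, while miR-338-3p averaged 9.67 reads and was not.

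A miRNA is a short RNA cut from a hairpin precursor by Drosha and Dicer. It guides an Argonaute protein to messenger RNAs, mainly through its seed, the bases near its 5′ end, and lowers their stability and translation. Each hairpin can give a 5p and a 3p strand, of which 1 is usually kept and the other, the passenger strand, degraded. TEAD1 is a DNA-binding protein that carries the co-activators YAP and TAZ of the Hippo pathway to their target genes, and in liver that pathway restrains growth. TEAD1 mRNA is not measured by small RNA libraries, so the extent of the knockdown could not be checked. No library of cells given a control siRNA was analysed, so loss of TEAD1, transfection and time in culture cannot be told apart. Nor can a change in RNA per cell be told apart from a change in the mix of cells, since each library is a bulk sample. The labels do not say that the libraries came from separate cultures, so a p-value measures the spread among these libraries alone, and that spread may be technical.

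The miRNAs on which the results turn are shown from the deposited files, 5′ to 3′, with the seed (bases 2 to 8) in capitals. The first set differed from untreated cells on the same side in both 36 h libraries.
miR-143-3p: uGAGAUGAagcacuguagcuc
miR-1246: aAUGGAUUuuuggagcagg
miR-12136: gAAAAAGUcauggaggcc
miR-7-5p: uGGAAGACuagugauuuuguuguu
miR-1-3p: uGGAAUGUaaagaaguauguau
The second set was low in the siRNA 2 library and not in the siRNA 1 library. Most of it is poor in G and C, and miR-340-3p is shown as the opposite strand of miR-340-5p.
miR-374a-3p: cUUAUCAGauuguauuguaauu
miR-101-3p: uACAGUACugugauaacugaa
miR-340-5p: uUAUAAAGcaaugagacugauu
miR-340-3p: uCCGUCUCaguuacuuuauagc
miR-32-5p: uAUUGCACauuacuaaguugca
miR-301a-3p: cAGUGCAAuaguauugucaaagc
The third set shares the seed AAAGUGC, yet its members differed between the 36 h libraries by unequal amounts.
miR-17-5p: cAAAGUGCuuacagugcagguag
miR-20a-5p: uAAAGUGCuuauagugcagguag
miR-106b-5p: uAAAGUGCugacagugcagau
miR-93-5p: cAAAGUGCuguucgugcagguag
The last set was high in the siRNA 2 library. miR-99a-5p and miR-100-5p share the seed ACCCGUA.
miR-615-3p: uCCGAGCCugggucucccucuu
miR-365a-5p: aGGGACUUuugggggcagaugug
miR-99a-5p: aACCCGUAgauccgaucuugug
miR-100-5p: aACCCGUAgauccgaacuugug

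In the RefSeq annotation of GRCh38.p14, miR-143-3p lies at chr5:149428978-149428998 on the plus strand, in an exon of CARMN, a long noncoding RNA gene. miR-1-3p is encoded at chr18:21829015-21829036 in an exon of MIR133A1HG and at chr20:62554351-62554372 in an intron of MIR1-1HG. Copies of miR-7-5p lie at chr9:83969811-83969834 in HNRNPK and at chr19:4770700-4770723 in MIR7-3HG. miR-374a-3p lies at chrX:74287295-74287316 in an intron of FTX, and miR-340-5p at chr5:180015361-180015382 in an intron of RNF130. miR-101-3p has a copy at chr9:4850345-4850365 in an intron of RCL1. miR-17-5p and miR-20a-5p lie at chr13:91350618-91350640 and chr13:91351072-91351094 in MIR17HG, while miR-106b-5p lies at chr7:100094043-100094063 in an intron of MCM7. miR-615-3p lies at chr12:54034010-54034031 in introns of HOXC4 and HOXC5. Host genes are those of GENCODE 29. Of the 484 miRNAs, 433 were found in the RefSeq table by name, and all 433 had the same sequence there.

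The libraries differed in composition before any single miRNA is considered. Reads assigned to a miRNA numbered 1920832 of 14294889 in the siRNA 1 library at 36 h (13.4%), 2070547 of 13134601 in the siRNA 2 library at 36 h (15.8%) and 6171851 of 14308482 in untreated cells (43.1%). Reads given to no annotated feature made up 86.6% and 84.2% of the siRNA 1 and siRNA 2 libraries at 36 h and 56.9% of the untreated library. That share moved with the comparison of 36 h and untreated cells, and its part in the results was not tested. Values are given as CPM, counts scaled to an equal number of miRNA reads per library after adjustment by the trimmed mean of M-values, so they describe each miRNA relative to the other miRNAs of its library. A floor of 3 reads, given as a guide to levels near 0, was 1.51 CPM in the siRNA 1 library, 1.26 CPM in the siRNA 2 library and 0.556 CPM in untreated cells. It covers counting error only, and counts of 0 were left as 0 CPM. The 10 most abundant miRNAs held 70.0% of the miRNA reads with siRNA 1, 69.9% with siRNA 2 and 75.0% in untreated cells. miR-21-5p, which is raised in many tumours, led with 30.8% and 24.3% of the miRNA reads at 36 h and 31.6% in untreated cells. miR-100-5p was second in the siRNA 2 library, with 8.14% of the miRNA reads against 3.50% with siRNA 1 and 3.48% in untreated cells.

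With the 36 h libraries taken as a pair, no miRNA passed the threshold against untreated cells (edgeR quasi-likelihood F-test, Benjamini-Hochberg adjusted p under 0.05, 0 of 484, 0%). At an unadjusted p under 0.05 there were 19, limma-voom also gave 0 (23 unadjusted), and DESeq2 gave 8 (1.65% of those tested, 17 unadjusted), of which 7 were higher (1.45%) and 1 lower (0.207%). Both 36 h libraries stood above untreated cells for 123 miRNAs (25.4%) and both below for 141 (29.1%), while the other 220 had 1 library on each side. Both were at least 2-fold above for 13 (2.69%) and at least 2-fold below for 4 (0.826%). With the siRNA 1 library of 36 h left out 101 miRNAs passed the threshold, and with the siRNA 2 library of 36 h left out 14 passed. The lone 36 h library is then assumed to vary like those of the other times.

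Among rises shared by both 36 h libraries, the smallest edgeR p-value was that of miR-143-3p, which is abundant in smooth muscle cells and fibroblasts. It had 742 CPM with siRNA 1 and 719 CPM with siRNA 2, against 158 CPM in untreated cells. Its mean at 36 h was 731 ± 16.2 CPM (SD, n = 2), and the log2 fold change was 2.21 ± 0.36 (SE). The adjusted p was 0.208 in edgeR and 2.19e-05 in DESeq2 (range over all alternatives 1.6e-08 to 0.996). miR-1246, whose sequence matches part of the U2 small nuclear RNA, had 24.7 CPM with siRNA 1 and 34.8 CPM with siRNA 2, against 3.52 CPM (19 reads) in untreated cells. Its log2 fold change was 3.07 ± 0.66, with an edgeR adjusted p of 0.351. Both 36 h values of these miRNAs lay above the untreated value and close to each other.

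miR-7-5p, which in the brain is bound by the circular RNA CDR1as, was the only miRNA that DESeq2 placed lower at 36 h. It had 20166 CPM with siRNA 1 and 20367 CPM with siRNA 2, against 64075 CPM in untreated cells. The log2 fold change was -1.66 ± 0.34, and its adjusted p was 0.351 in edgeR and 0.0402 in DESeq2 (range over all alternatives 2.01e-07 to 0.996). In untreated cells it made up 5.61% of all miRNA reads, against 2.08% with siRNA 1 and 2.34% with siRNA 2. The next smallest p-values among miRNAs that averaged 50 reads or more, with both 36 h libraries below untreated cells, were those of 4 others. miR-452-5p had 1704 CPM with siRNA 1 and 1123 CPM with siRNA 2, against 2628 CPM in untreated cells. miR-500a-5p had 14.6 CPM with siRNA 1 and 14.7 CPM with siRNA 2, against 34.1 CPM in untreated cells. miR-335-3p and miR-455-5p had log2 fold changes of -0.86 ± 0.36 and -0.71 ± 0.31. None of these 4 passed in edgeR (adjusted p = 0.95 for each).

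Other miRNAs above untreated cells in both 36 h libraries were far higher in 1 of them than in the other. miR-12136 had 21.7 CPM with siRNA 1 and 82.6 CPM with siRNA 2, against 7.22 CPM in untreated cells, and miR-6866-5p had 42.8 and 125 CPM against 21.5 CPM. miR-1-3p, a miRNA of heart and skeletal muscle, had 863 CPM with siRNA 1 and 53.3 CPM with siRNA 2, against 22.4 CPM in untreated cells. Its log2 fold change over the pair was 4.35 ± 1.53, with an edgeR adjusted p of 0.939. DESeq2 also placed miR-7704, miR-10394-3p and miR-4485-3p higher, with adjusted p from 0.037 to 0.0402. In untreated cells miR-10394-3p had 2 reads and miR-4485-3p had 3, against 36 and 47 with siRNA 2. Both met the count minimum only through the siRNA 2 library, so their place among the DESeq2 calls is partly set by the filter. Their ratios to untreated cells with siRNA 1 were 12.2 (95% counting interval 2.53 to 116) and 9.07 (2.34 to 51.3), and with siRNA 2 they were 40.8 (10.5 to 350) and 35.5 (11.4 to 178).

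**Figure D1:**
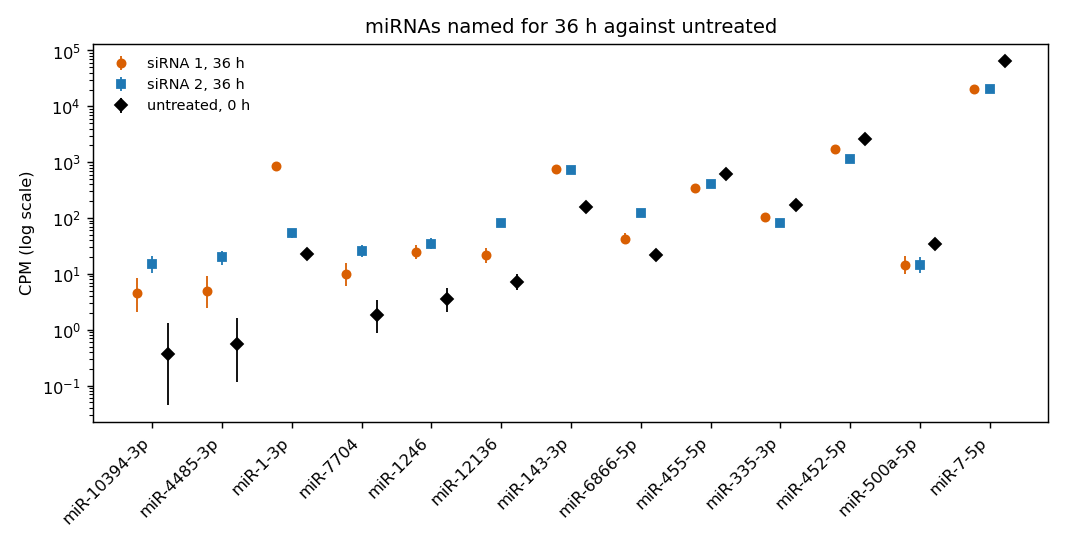
CPM (log scale) of the miRNAs named for 36 h against untreated, with the siRNA 1 and siRNA 2 libraries at 36 h left of the untreated library and 95% exact counting intervals as bars. miR-143-3p and miR-7-5p have nearly equal values in both 36 h libraries, while miR-1-3p stands at 863 CPM in the siRNA 1 library and 53.3 CPM in the siRNA 2 library.

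The 36 h libraries were farther from each other than from any other library. Distance was measured as the SD over the 484 miRNAs of the log2 CPM difference, so a larger value means less similar profiles. The siRNA 2 and siRNA 1 libraries at 36 h were 1.22 apart. From the siRNA 1 library at 36 h, the distances were 0.628 and 0.710 to the siRNA 1 and siRNA 2 libraries of 24 h, 0.721 to untreated cells, and 1.09 and 1.05 to the siRNA 1 and siRNA 2 libraries of 48 h. From the siRNA 2 library at 36 h, the distances were 0.577 and 0.664 to the siRNA 1 and siRNA 2 libraries of 48 h, and 1.16 to 1.18 to the 24 h libraries and untreated cells. The siRNA 1 library thus lay nearest the 24 h libraries and the siRNA 2 library nearest the 48 h libraries. Over the 105 most abundant of these miRNAs the nearest libraries were the same, at 0.362 from the siRNA 1 library and 0.312 from the siRNA 2 library. There the siRNA 2 library was 1.01 from the siRNA 1 library, and 1.02 and 1.06 from the siRNA 1 and siRNA 2 libraries of 24 h.

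**Figure D2:**
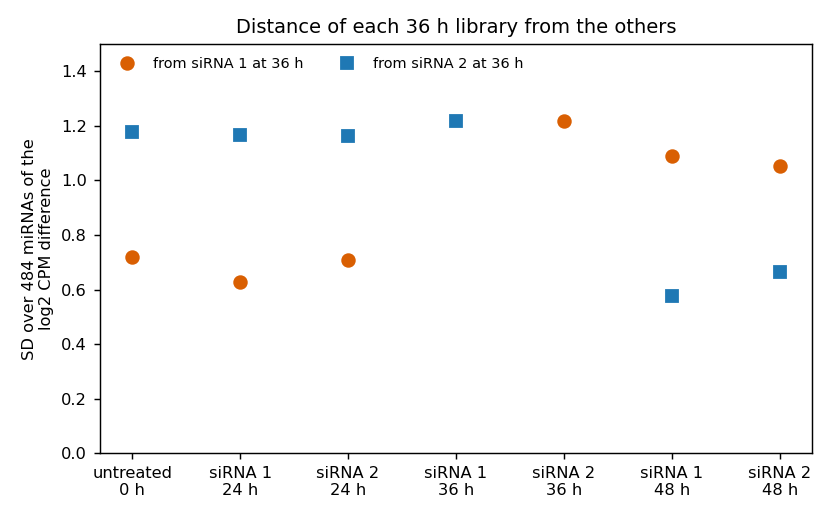
SD over 484 miRNAs of the log2 CPM difference (y axis) between each 36 h library and the other libraries in time order (x axis), with circles for siRNA 1 and squares for siRNA 2. The siRNA 1 library is lowest at 0.628 beside a 24 h library, and the siRNA 2 library is lowest at 0.577 beside a 48 h library.

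Each 36 h library was then set against untreated cells alone, with the spread taken from the 24 h and 48 h pairs and each lone library assumed to vary like them. Both contrasts share the untreated library, so their counts are not independent. With siRNA 1, 8 miRNAs were higher (1.65%) and 6 lower (1.24%), 14 in all (2.89%). With siRNA 2, 36 were higher (7.44%) and 64 lower (13.2%), 100 in all (20.7%). The split depends on the scale. With the size factors of DESeq2 it was 13 higher and 6 lower with siRNA 1. On total miRNA counts it was 13 higher and 2 lower with siRNA 1 and 64 higher and 37 lower with siRNA 2. On all reads of the library it was 2 higher and 113 lower with siRNA 1 and 9 higher and 120 lower with siRNA 2. Without the siRNA 1 library of 48 h, or without the siRNA 2 library of 48 h, the count for siRNA 1 was 6.

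In the siRNA 1 library the largest rise past the threshold was that of miR-1-3p, at a log2 fold change of 5.26 ± 0.42 (edgeR adjusted p = 3.46e-28). miR-34c-5p, a p53-responsive miRNA also made by ciliated cells, had 40.3 CPM (80 reads) with siRNA 1 against 3.52 CPM (19 reads) in untreated cells, a log2 fold change of 3.50 ± 0.67. These were the only miRNAs at least 4-fold above all 6 other libraries in either 36 h library, with at least 50 reads there. The other libraries had 20.7 to 53.3 CPM of miR-1-3p and 1.31 to 5.77 CPM of miR-34c-5p. miR-3182, which lies in an intron of CDH13, had 129 CPM with siRNA 1 against 29.1 CPM in untreated cells and rose by 2.14 ± 0.41 on the log2 scale. The siRNA 2 library had 26.4 CPM of it. miR-143-3p (2.24 ± 0.35) and miR-1246 (2.80 ± 0.54) rose as well, as did miR-199a-5p, miR-4516 and miR-7704. The last 3 are named because they complete the 8 and were chosen after their values were seen.

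The 6 that were lower with siRNA 1 were miR-1247-3p, miR-1278, miR-7-5p, miR-4664-3p, let-7b-3p and miR-181a-2-3p. let-7b-3p, the passenger strand of a let-7 hairpin, had 38.3 CPM with siRNA 1 against 92.6 CPM in untreated cells, a log2 fold change of -1.27 ± 0.38 (edgeR adjusted p = 0.0405, range over the alternatives 0.00484 to 0.204). miR-181a-2-3p had 141 CPM with siRNA 1 against 335 CPM in untreated cells, and miR-1278 had 12.1 CPM against 38.9 CPM. miR-7-5p fell by 1.67 ± 0.33 on the log2 scale (adjusted p = 7.32e-05).

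Muscle markers other than miR-1-3p had few reads in the siRNA 1 library. Of 7 muscle miRNAs on the list, only miR-1-3p reached the count minimum. miR-206 had 13 reads, miR-499a-5p 9 and miR-133a-3p 5 with siRNA 1, against 0, 5 and 3 reads in untreated cells. Another 3 had no read in the 3 libraries. The untreated library had more miRNA reads, so reads do not compare directly. Scaled to library size, miR-206 had 6.55 CPM with siRNA 1 and 0.42 CPM with siRNA 2, against 0 in untreated cells. miR-133a-3p had 2.52 CPM with siRNA 1 and 0 with siRNA 2, against 0.556 CPM in untreated cells. The summed muscle level was 877 CPM with siRNA 1 and 54.1 CPM with siRNA 2 against 23.9 CPM in untreated cells. Of 7 miRNAs of fibroblasts, smooth muscle and endothelium, 5 were tested, and 2 were higher in each 36 h library. These were miR-143-3p and miR-199a-5p with siRNA 1 and miR-143-3p and miR-145-5p with siRNA 2. Over all 484 miRNAs the shares higher were 1.65% with siRNA 1 and 7.44% with siRNA 2. The summed level of the 7 was 1063 CPM with siRNA 1 and 1086 CPM with siRNA 2, against 457 CPM in untreated cells. Without miR-143-3p the sum was 321 CPM with siRNA 1 and 367 CPM with siRNA 2, against 299 CPM in untreated cells. miR-145-5p, encoded beside miR-143, had 6 and 25 reads with siRNA 1 and siRNA 2 and 1 read in untreated cells. Its mean of 10.7 reads met the count minimum only through the siRNA 2 library. Its rise there is thus partly set by the filter and is no support for the list. The part of RNA of other cells in these results was not tested.

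In the siRNA 2 library the largest falls, among miRNAs that averaged 50 reads or more, were in miRNAs that did not pass the threshold in the siRNA 1 library. miR-374a-3p, from an intron of FTX, had 73.4 CPM with siRNA 2 against 995 CPM in untreated cells, a log2 fold change of -3.76 ± 0.37 (edgeR adjusted p = 2.12e-19), and 1061 CPM with siRNA 1. miR-101-3p, known to repress the histone methyltransferase EZH2, had 327 CPM with siRNA 2 against 3036 CPM in untreated cells (-3.21 ± 0.34), and 3475 CPM with siRNA 1. miR-340-5p had 112 CPM with siRNA 2 against 1154 CPM in untreated cells, and miR-542-3p had 10.9 CPM against 128 CPM. miR-301a-3p, from an intron of SKA2, had 1.68 CPM (4 reads) with siRNA 2 against 38.3 CPM (207 reads) in untreated cells. miR-7-1-3p, miR-3613-5p and miR-590-3p were each lower by 3.18 to 3.19 on the log2 scale.

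The largest rises with siRNA 2 among miRNAs of that depth were those of miR-12136 (3.51 ± 0.48) and miR-1246 (3.29 ± 0.53), followed by miR-451a, a miRNA of red blood cell precursors, which had 74.3 CPM with siRNA 2 against 11.7 CPM in untreated cells. miR-144-3p, the cluster partner of miR-451a, had 3 reads with siRNA 2 and 0 in untreated cells. Of 7 blood cell miRNAs on the list, only miR-451a reached the count minimum. miR-142-3p, miR-142-5p and miR-150-5p each had 1.26 CPM (3 reads) with siRNA 2. In untreated cells they had 1.85, 1.48 and 0.556 CPM, so 2 of these 3 were lower with siRNA 2. miR-223-3p had no read in either library. miR-6866-5p rose by 2.54 ± 0.40 and miR-143-3p by 2.19 ± 0.34. miR-7706, miR-365a-5p and miR-615-3p had 1411, 804 and 579 CPM with siRNA 2, against 397, 244 and 188 CPM in untreated cells. miR-122-5p, the dominant miRNA of hepatocytes, had 6.71 CPM (16 reads) with siRNA 2 and 47.4 CPM (94 reads) with siRNA 1, against 45.2 CPM (244 reads) in untreated cells. It fell with siRNA 2 (-2.74 ± 0.58, edgeR adjusted p = 3.79e-05), while at 24 h it had 4.54 CPM with siRNA 2 and 32.2 CPM with siRNA 1. At 48 h it had 3.80 CPM with siRNA 2 and 4.36 CPM with siRNA 1, so it was low with both siRNAs there. The other 3 hepatocyte miRNAs tested did not pass with either siRNA, among them miR-192-5p, which had 1702 CPM with siRNA 1 and 3052 CPM with siRNA 2 against 2463 CPM in untreated cells. Of 15 entries that lie within structural RNAs such as the U2 small nuclear RNA, 6 were tested. miR-1246 was the member higher with siRNA 1, and miR-1246 and miR-12136 were higher with siRNA 2. The shares higher over all 484 miRNAs were 1.65% with siRNA 1 and 7.44% with siRNA 2.

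The difference between the siRNA 2 and siRNA 1 libraries at 36 h was tested directly, with neither as a control. Of the 484 miRNAs, 48 were higher with siRNA 2 (9.92%) and 68 lower (14%), 116 in all (24%). On total miRNA counts the split was 58 higher and 52 lower, and on all reads 13 higher and 18 lower. The 3 largest falls among miRNAs that averaged 50 reads or more were miR-301a-3p (-4.57 ± 0.70), miR-1-3p (-4.02 ± 0.40) and miR-374a-3p (-3.85 ± 0.37, edgeR adjusted p = 4.15e-20). miR-32-5p had 35.2 CPM with siRNA 2 and 373 CPM with siRNA 1, and untreated cells had 283 CPM. Among miRNAs that averaged 50 reads or more, the largest rises were those of let-7b-3p, with 159 CPM with siRNA 2 and 38.3 CPM with siRNA 1 (2.05 ± 0.39), and of miR-365a-5p, with 804 and 199 CPM (2.01 ± 0.35). miR-10525-3p, miR-4664-3p and miR-1260b were also higher. Without the siRNA 1 library of 48 h, or without the siRNA 2 library of 48 h, 76 passed. miR-143-3p (-0.05 ± 0.33) and miR-7-5p (0.01 ± 0.33) did not pass.

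**Figure D3:**
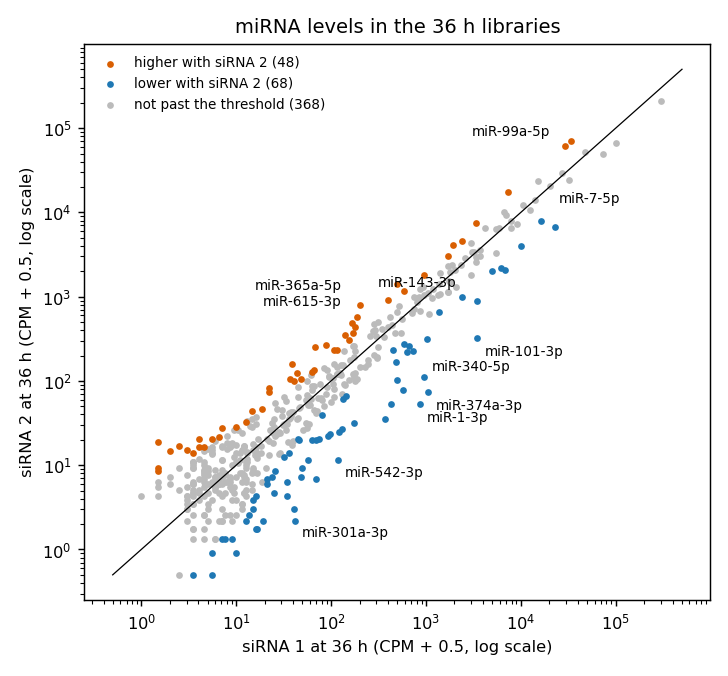
Level of each of 484 miRNAs in the siRNA 2 library (y axis) and the siRNA 1 library (x axis) at 36 h, as CPM + 0.5 on log scales, with the line of equal levels. The 48 miRNAs higher with siRNA 2 (orange) and the 68 lower (blue) include abundant ones such as miR-99a-5p and miR-101-3p.

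By family, the differences between siRNA 2 and siRNA 1 were uneven. Family counts between siRNA 2 and siRNA 1 stand beside 14% lower and 9.92% higher over all 484 miRNAs, and those of siRNA 2 against untreated cells beside 13.2% lower and 7.44% higher. Of 10 tested strands of the miR-17~92 cluster, a polycistron that promotes growth in many tumours, 6 were lower with siRNA 2 than with siRNA 1 and none higher, with a median log2 difference of -1.86 against -0.04 over all miRNAs. On all reads as the scale 1 of the 10 was lower. miR-20a-5p had 888 CPM with siRNA 2 and 3494 CPM with siRNA 1, and miR-19b-3p had 31.0 and 176 CPM. miR-92a-3p, also on the cluster list, had 23368 CPM with siRNA 2 and 15020 CPM with siRNA 1, a log2 difference of 0.64 ± 0.32 that did not pass. miR-92a-3p and miR-19b-3p each have a further copy on chromosome X, so their reads cannot be assigned to the cluster's transcript alone. In the related miR-106b~25 cluster, the 6 tested strands had a median log2 difference of 0.15, with 4 above 0 and 2 below. miR-25-5p had 45.7 CPM with siRNA 2 and 18.1 CPM with siRNA 1, a log2 difference of 1.33. On the other side, miR-106b-5p had 52.9 CPM with siRNA 2 and 430 CPM with siRNA 1, a log2 difference of -3.02 ± 0.38. miR-106b-3p of the same hairpin had 1971 and 1800 CPM, and miR-93-5p, which shares the seed AAAGUGC, had 1138 and 1714 CPM and did not pass. Of the 6 miRNAs with that seed, 4 were lower with siRNA 2.

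All 4 tested members of the miR-15 and miR-16 family, which represses cyclins and BCL2, were lower with siRNA 2 than with siRNA 1. The median log2 difference was -1.22, but on total miRNA counts or on all reads as the scale 1 passed. Against untreated cells the family median was 0.67 with siRNA 1 and -0.51 with siRNA 2, where 1 of the 4 was lower. miR-16-5p had 659 CPM with siRNA 2 and 1375 CPM with siRNA 1, against 686 CPM in untreated cells. Of 3 members of the miR-29 family, known to repress collagens, miR-29b-3p had 77.6 CPM with siRNA 2 and 568 CPM with siRNA 1, and miR-29c-3p 3.36 and 14.6 CPM, and both were lower. miR-29a-3p had 1532 and 1739 CPM and did not pass. miR-29b-3p had 1259 CPM with siRNA 2 and 408 CPM with siRNA 1 at 24 h. The miR-374 and miR-340 list groups AU-rich miRNAs and is not a family. It was chosen with earlier results of these data known, so its direction is no test. Of its 6 tested members, 5 were lower and 1 higher, and of 6 of the miR-424 cluster 3 were lower. Of 9 let-7 miRNAs, which LIN28 restrains in embryonic and tumour cells, none passed, and their log2 differences ran from -0.72 to 0.61. Of 7 members of the group of miR-99, miR-100, miR-10 and miR-125 miRNAs, miR-99a-5p and miR-100-5p were higher. miR-99a-5p had 60608 CPM with siRNA 2 and 29510 CPM with siRNA 1, and miR-100-5p had 70662 and 33846 CPM, while on all reads as the scale neither passed. Among miRNAs linked to YAP and TEAD, 4 of 7 were tested, and with siRNA 2 against untreated cells miR-29b-3p was lower and none was higher, while with siRNA 1 none passed. A count of 1 in 4 is too small to set apart from the 13.2% lower over all miRNAs. miR-200a-3p and miR-200c-3p, which maintain epithelial cells by repressing ZEB1, were higher with siRNA 2 than in untreated cells, at 8.39 against 1.85 CPM and 45.7 against 20.2 CPM. On all reads as the scale they did not pass.

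**Figure D4:**
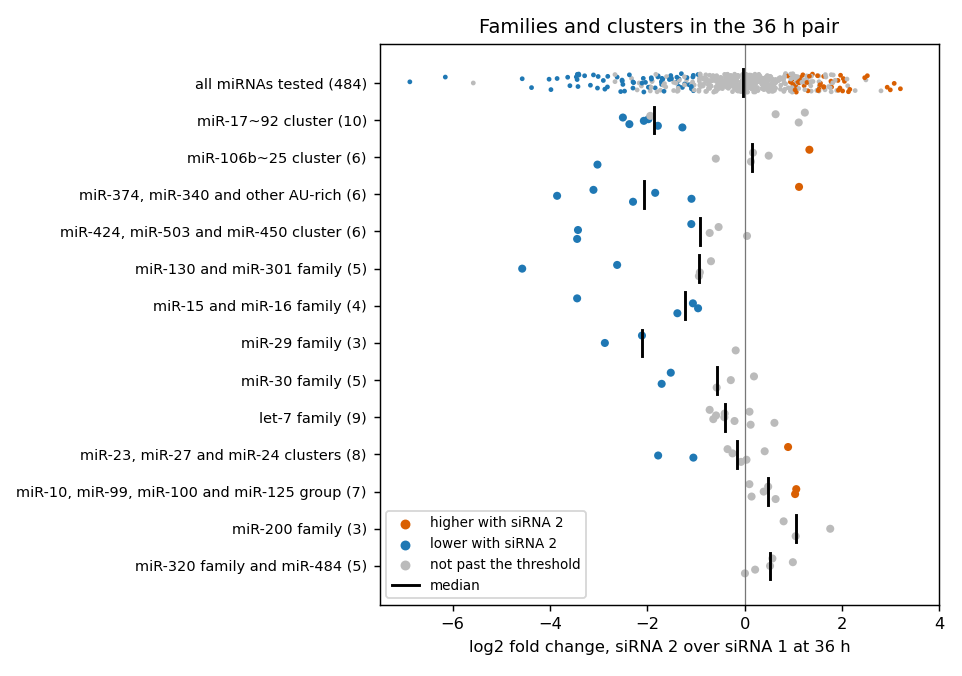
Log2 fold change of siRNA 2 over siRNA 1 at 36 h for all 484 miRNAs and for members of 13 groups (families, clusters and a list of AU-rich miRNAs). Orange marks higher, blue lower, grey not past the threshold and a black line the median. The miR-17~92 cluster has its median at -1.86 and 6 lower members, while the let-7 family has none past the threshold.

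Both strands were tested for 116 hairpins, and 55 of these 232 strands passed between siRNA 2 and siRNA 1 (23.7%, near the 24% of all miRNAs). In 5 hairpins both strands passed in the same direction, in 3 both passed in opposite directions, and in 39 only 1 passed, which does not show that the strands differ, since that difference was not tested. miR-340-5p had 112 CPM with siRNA 2 and 961 CPM with siRNA 1 (-3.11 ± 0.36), while miR-340-3p had 104 and 47.9 CPM (1.12 ± 0.39). miR-99a-5p was higher with siRNA 2, while miR-99a-3p was lower, at 2.52 CPM (6 reads) with siRNA 2 and 14.6 CPM with siRNA 1. miR-27a-5p rose by 0.89 ± 0.32 on the log2 scale while miR-27a-3p fell by 1.05 ± 0.32. miR-301a-5p had 109 CPM with siRNA 2 and 105 CPM with siRNA 1, beside the fall of miR-301a-3p. miR-18a-5p had 10.9 and 56.4 CPM, and miR-18a-3p had 54.5 and 25.2 CPM, of which the second did not pass (edgeR adjusted p = 0.0528). Across the 116 hairpins the median gap between strands was 0.92 on the log2 scale, and Pearson's r between strands was 0.04, as a description of strands that share their libraries. Strands were paired by name. Some, such as let-7a-5p and miR-181a-5p, are encoded at several loci, so such pairs do not stand for a single hairpin.

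**Figure D5:**
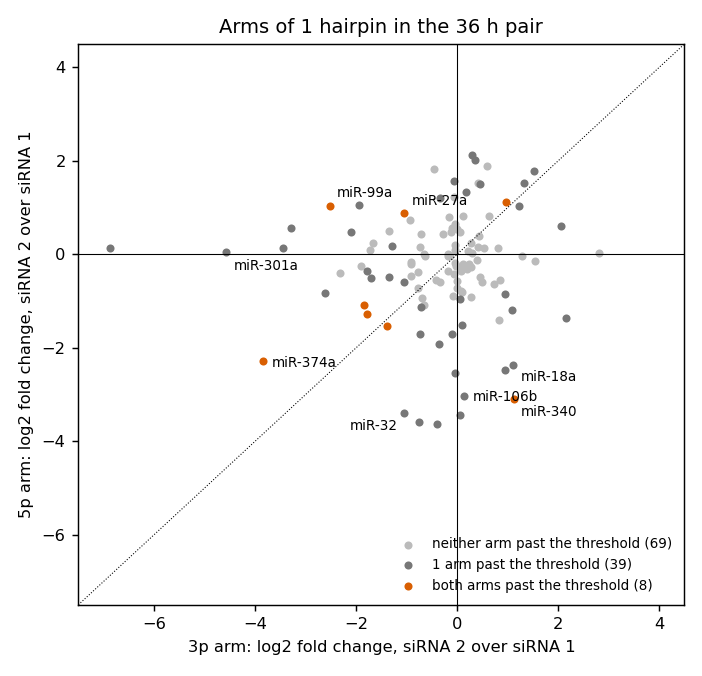
Log2 fold change of siRNA 2 over siRNA 1 at 36 h of the 5p strand (y axis) and 3p strand (x axis) of 116 hairpins, with the dotted line where the strands are equal. Strands were paired by name, and some are encoded at several loci. Both strands passed in 8 hairpins (orange), and miR-340 lies far from the line with its 5p strand at -3.11 and its 3p strand at 1.12.

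Base composition moved with the siRNA 2 result, and both 48 h libraries shared that trait. The slope of log2 CPM per 10% of G and C was -0.225 in the siRNA 2 library at 36 h. At 48 h it was -0.326 with siRNA 1 and -0.312 with siRNA 2. In the siRNA 1 library at 36 h it was -0.583, in untreated cells -0.615, and at 24 h -0.626 with siRNA 1 and -0.600 with siRNA 2. Among the 47 miRNAs with under 36% G and C, 20 were lower with siRNA 2 than with siRNA 1 and 1 was higher, with a median log2 difference of -1.24. Among the 104 with 60% or more, 2 were lower and 13 higher, with a median of 0.24. miR-374a-3p has 22.7% G and C and miR-340-5p 27.3%, whereas miR-615-3p has 63.6%. Pearson's r of GC content and log2 difference across the 484 miRNAs, which share their libraries, was 0.35 for siRNA 2 against siRNA 1, 0.39 for siRNA 2 against untreated cells and 0.07 for siRNA 1 against untreated cells. With a linear GC trend removed from each library, 112 miRNAs passed between siRNA 2 and siRNA 1, of which 45 were higher and 67 lower, and 89 of the 112 were among the 116 that passed without that step. The median of the miR-17~92 cluster (-1.53) stayed below 0, while that of the let-7 family became 0.11. The median of the AU-rich miR-374 and miR-340 list was -1.31, which is no test, since the list was chosen with earlier results known.

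Because each 36 h library lay near another time, it was also compared with that pair, a choice made with earlier results of these data known. The siRNA 1 library differed from the 24 h pair in 5 miRNAs, all higher at 36 h (1.03%). At 36 h miR-1-3p had 863 CPM, and the 24 h libraries of siRNA 1 and siRNA 2 had 20.7 and 27.6 CPM, a log2 fold change of 5.17 ± 0.32. miR-143-3p had 742 CPM against 196 and 162 CPM (2.05 ± 0.28), and miR-3182 had 129 CPM against 34.5 and 41.6 CPM (1.76 ± 0.33). miR-34c-5p and miR-146a-5p completed the 5, the last of them named after its values were seen. miR-7-5p did not pass, at 20166 CPM against 35643 and 33913 CPM (edgeR adjusted p = 0.317).

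The siRNA 2 library did not differ from the 48 h pair past the threshold in any miRNA (edgeR 0 of 484, 0%), with 43 at an unadjusted p under 0.05, 0 in DESeq2 (14 unadjusted) and 1 lower in limma-voom (0.207%, 42 unadjusted). At 36 h miR-143-3p had 719 CPM, and the 48 h libraries of siRNA 1 and siRNA 2 had 445 and 390 CPM, a log2 fold change of 0.78 ± 0.28. miR-1-3p had 53.3 CPM against 25.7 CPM in both 48 h libraries (1.05 ± 0.33), and miR-365a-5p had 804 CPM against 610 and 342 CPM. On the other side, miR-29b-3p had 77.6 CPM against 158 and 149 CPM (-0.99 ± 0.32), miR-574-3p had 69.2 CPM against 121 and 155 CPM, and miR-1260b had 43.6 CPM against 90.2 and 102 CPM. These did not pass, with edgeR adjusted p from 0.219. The low levels described above were shared by both 48 h libraries, with 149 and 103 CPM of miR-374a-3p and 452 and 376 CPM of miR-101-3p for siRNA 1 and siRNA 2.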

How the data were processed

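Small RNA libraries of HepG2 cells were made with the NEBNext Multiplex Small RNA kit from 2 ug of total RNA, per the labels' protocols. Each deposited file gives, for 1 library, the unnormalised count of reads for every mature miRNA, made by the authors with tools and a genome build not given in the sources used here. The 5 summary lines (no feature, ambiguous and the like) were not tested. They stayed out of library sizes except in the alternative with all reads as the scale. Counts were tested with edgeR 4.0.16 (R 4.3.3), TMM scaling and the quasi-likelihood F-test over the 484 miRNAs that averaged 10 reads or more in the 3 libraries, at a Benjamini-Hochberg adjusted p of 0.05. All 7 libraries entered each fit. For the 36 h pair the groups were the times (3 residual degrees of freedom). For single libraries each 36 h library was its own group (2 residual degrees of freedom), so the gap between the 36 h libraries is not in that error. DESeq2 1.42.0 and limma-voom (limma 3.58.1) were alternatives. Standard errors were derived from F as the absolute log2 fold change divided by its square root. Intervals of CPM are exact Clopper-Pearson intervals at 95%. Scripts were tested on simulated counts.

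The members, lists and rules were chosen with earlier results of these data known. Named miRNAs are the 8 largest rises and falls past the threshold that averaged 50 reads or more, filled up to 5 by the smallest p-values where fewer passed. To these were added the 10 most abundant, the 3 smallest p-values of each direction against 24 h or 48 h, miRNAs at least 4-fold from all 6 other libraries, opposite strands, list members and the DESeq2 calls of the pair. Of the 484 miRNAs, 5 share their sequence with another entry, so their counts are uncertain.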

Additional observations from a re-analysis of the deposited data

Results flagged for a closer look

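The siRNA 2 and siRNA 1 libraries at 36 h differed from each other in 116 miRNAs, each tested as the difference itself with edgeR. Among the miRNAs named for 36 h against untreated cells, the log2 difference of siRNA 2 minus siRNA 1 was 1.93 for miR-12136, 1.55 for miR-6866-5p, 1.96 for miR-4485-3p and -4.02 for miR-1-3p. All 4 were above the untreated level in both 36 h libraries, by unequal amounts. Of these, miR-4485-3p met the count minimum only through the siRNA 2 library, so its difference is partly set by the filter. Reads given to no feature, which no comparison uses, made up 86.6% of the siRNA 1 library and 84.2% of the siRNA 2 library at 36 h, above the 56.9% of untreated cells. Groups of 1 or 2 libraries are too small to test a library as an outlier.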

How the results depend on the processing

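For 36 h against untreated, the count of 0 became 8 with DESeq2, 63 with all reads as the scale (2 higher, 61 lower) and 10 with no count filter, and ranged from 0 to 101 with 1 library left out (101 without siRNA 1 at 36 h, 14 without siRNA 2 at 36 h). For siRNA 1 against untreated, the count of 14 became 7 with DESeq2 and 115 with all reads, and ranged from 6 to 17 with 1 library left out. For siRNA 2 against untreated, the count of 100 became 64 with DESeq2 (69 to 114 with 1 library left out). For siRNA 2 against siRNA 1, the count of 116 became 75 with DESeq2 and 31 with all reads (76 to 134 with 1 library left out). For siRNA 1 at 36 h against 24 h, the count of 5 became 3 with DESeq2, 2 with all reads and 3 at a mean count of 50 (4 to 7 with 1 library left out). For siRNA 2 at 36 h against 48 h, limma-voom gave 1 in place of 0. The cause of these shifts was not tested, other than that all reads as the scale moves the median log2 fold change of all miRNAs to -1.46 for siRNA 1 and -1.09 for siRNA 2 against untreated.

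The siRNA number is shared by libraries of different times, with only 2 such numbers, so it names a reagent and does not show a shared culture. As a replicate block it leaves fewer residual degrees of freedom than the 3 or 2 of the main fits. The spread in the block fits is therefore less well known. With the siRNA number as a replicate block, 0 miRNAs passed for 36 h against untreated, 4 for siRNA 1 against 24 h and 2 for siRNA 2 against 48 h. For siRNA 2 against siRNA 1 the replicate block asks for a difference beyond that at 24 and 48 h, and 46 passed (12 higher, 34 lower), all among the 116. Of the 3 hairpins with strands called in opposite directions, both strands of miR-340 passed under the block (adjusted p = 2.08e-07 for miR-340-5p and 0.0269 for miR-340-3p). Those of miR-27a and miR-99a did not (0.155 for miR-27a-5p, 0.243 for miR-27a-3p, 0.191 for miR-99a-5p and 0.233 for miR-99a-3p). Over the named miRNAs and all alternatives, 919 values kept their direction and their side of the threshold, 37 lost it, 44 gained it and 0 changed direction. The named miRNAs were picked for large changes or small p-values. Those filled in for 36 h against untreated also had both 36 h libraries on 1 side. That choice favours an unchanged direction, so these counts are no test of it. With 1 untreated library, depth does not replace replication of that group.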
